A study of Mus musculus with 45 samples.

Results

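Integrins are cell surface receptors made of an alpha and a beta subunit, and this report describes the transcripts of the 10 integrin subunits that microglia are best known to carry. The members were listed by name: Itga4, Itga5, Itga6, Itgal, Itgam, Itgav, Itgax, Itgb1, Itgb2 and Itgb5. All 10 were found in each of the 3 count tables, which list 55450 gene identifiers for microglia sorted from cultured brain slices, 47643 for microglia sorted from adult brain and 43411 for whole brain tissue. RNA sequencing covered 45 samples of C57BL/6 mice in 7 groups. Slices were cut from neonatal pups, kept in culture for 2 weeks, and then given medium alone (9 samples), TNF at 50 ng/mL (11 samples) or GM-CSF at 20 ng/mL (9 samples) for 24 hours. Per the study's methods, each slice sample combined 2 to 3 slices treated apart, the slice samples came from 4 independent experiments, and the in vivo samples came from independent mice. Adult females of 10 to 15 weeks received PBS (4 samples) or LPS at 1 mg/kg into the peritoneum (4 samples), and their microglia were sorted 24 hours later. Brain tissue came from females of 10 to 15 weeks that were left untreated (4 samples) or were given the same LPS dose for 24 hours (4 samples). The labels name no transgene or deletion in any group. The brain controls were not injected, so in brain tissue an effect of the injection and one of LPS cannot be told apart. Both kinds of microglia were sorted as cells high for CD11b and intermediate for CD45. CD11b is the protein of Itgam, so the level of Itgam in sorted cells was measured in cells selected for that protein.

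Integrins hold a cell to its surroundings and pass signals in both directions across the membrane. The alpha and beta chains pair inside the cell, so the surface level of a receptor depends on both genes. The beta2 integrins are the leukocyte family: Itgal (CD11a) with Itgb2 forms LFA-1, which binds ICAM proteins on other cells, Itgam with Itgb2 forms complement receptor CR3, which takes part in phagocytosis of complement-coated material, and Itgax (CD11c) with Itgb2 forms the related receptor CR4. The beta1 chain Itgb1 pairs with Itga5 to bind fibronectin, with Itga6 to bind laminin, with Itga4 to bind VCAM-1 and fibronectin, and with Itgav. Itgav also pairs with Itgb5, a receptor for vitronectin that takes part in the uptake of dying cells and in the activation of latent TGF-beta.

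In the GENCODE M21 annotation of GRCm38 (mm10), each member is a protein-coding gene. The 3 alpha members of the beta2 family lie on the plus strand of chromosome 7: Itgal at chr7:127296260-127335138, Itgam at chr7:128062640-128118491 and Itgax at chr7:128129547-128150657. Itgam ends 11056 bases before Itgax starts, and Itgal ends 727502 bases before Itgam starts. Itga4 (chr2:79255426-79333123), Itga6 (chr2:71745616-71858416) and Itgav (chr2:83724397-83806916) lie on chromosome 2. The remaining members are Itga5 (chr15:103344286-103366763, minus strand), Itgb1 (chr8:128685654-128733200), Itgb2 (chr10:77530252-77565708) and Itgb5 (chr16:33829665-33949338). Reads from Itgam may be split with Gm49368, a gene model on the same strand that shares 3450 of the 5024 exon bases of Itgam, so levels of Itgam are uncertain between tables. Within a table the level of Itgam per kilobase may be too low, so its place and share among the members are uncertain too. Gm49368 itself averaged 5.50 and 10.8 CPM (counts per 1000000 counts of a library, on TMM-scaled library sizes) in the PBS and LPS groups of adult microglia and 0.0286 to 0.186 CPM in the slice groups. Exons of Itga4 and Itgav overlap genes on the opposite strand, Cerkl over 1124 bases and Gm13684 over 634 bases, and whether the counting used strand is not given in the sources used here.

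The 250 bases before the RefSeq start site (GRCm38.p6) were read for the 7 members in the promoter table. They are shown for 4 members: Itga5 and Itgb5, which rose and fell most clearly under TNF, and the neighbours Itgam and Itgax, whose levels differed widely. Capitals mark letters found on either strand of GAGGAA, the core of sites of the myeloid factor PU.1, or of TGACTCA, the AP-1 site. Each sequence is written 5′ to 3′ on the strand of its gene, and the regions are chr15:103366792-103367041 (minus), chr16:33829415-33829664 (plus), chr7:128062390-128062639 (plus) and chr7:128129300-128129549 (plus).
Itga5: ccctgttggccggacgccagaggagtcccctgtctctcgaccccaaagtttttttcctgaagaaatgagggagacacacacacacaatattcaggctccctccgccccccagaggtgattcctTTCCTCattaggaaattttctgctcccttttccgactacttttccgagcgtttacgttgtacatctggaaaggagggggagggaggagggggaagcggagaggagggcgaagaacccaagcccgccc
Itgb5: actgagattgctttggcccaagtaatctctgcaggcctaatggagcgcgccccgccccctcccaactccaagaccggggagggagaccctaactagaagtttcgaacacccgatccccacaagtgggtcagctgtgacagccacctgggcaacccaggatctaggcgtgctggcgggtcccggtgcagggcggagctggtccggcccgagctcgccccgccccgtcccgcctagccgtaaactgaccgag
Itgam: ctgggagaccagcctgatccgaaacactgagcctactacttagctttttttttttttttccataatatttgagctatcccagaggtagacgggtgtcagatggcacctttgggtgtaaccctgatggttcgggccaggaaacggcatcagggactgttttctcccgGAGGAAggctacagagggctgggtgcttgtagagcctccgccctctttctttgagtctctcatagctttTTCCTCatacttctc
Itgax: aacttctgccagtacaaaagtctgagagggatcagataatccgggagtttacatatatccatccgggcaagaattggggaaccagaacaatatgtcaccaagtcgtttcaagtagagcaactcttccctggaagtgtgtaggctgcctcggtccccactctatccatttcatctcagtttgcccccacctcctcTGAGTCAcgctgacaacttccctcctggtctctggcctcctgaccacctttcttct
GAGGAA stood in the window of 4 of 7 members (Itga5, Itgam, Itgav and Itgb1), against 23.3% of all 32851 windows of the same length. Itgam held it at 2 places and Itga5 at 1 place, 127 bases before the start. TGACTCA stood in Itgax alone, 56 bases before the start, against 4.46% of all windows. The interferon-response type GAAANNGAA stood in Itgav alone (7.13% of all windows). The STAT5-type TTCNNNGAA (7.02% of all) and the NF-kB consensus motif (3.90% of all) were in none of the 7. Matches of TTCNNNGAA and GAAANNGAA can share bases. In the printed window of Itgb5 none of these letters was found, and 65.2% of its bases were G or C, against 55.6% for Itga5, 49.6% for Itgam, 50% for Itgax and a median of 52.4% over all windows.

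Libraries held 5973364 to 9165485 counts for slice microglia, 11391577 to 14216034 for adult microglia and 8199881 to 10368603 for brain tissue. The summed level of 10 microglial genes checked the labels: it was 61601 to 68674 CPM in PBS microglia of adults, 21835 to 31214 CPM in medium-treated slice microglia and 316 to 362 CPM in untreated brain. In the sorted cells, the 6 neuronal markers reached 12.006 CPM at most. The 6 astrocyte markers summed to 254 to 279 CPM in adult microglia with PBS and 145 to 181 CPM with LPS. Over the slice groups they summed to 18.6 to 99.96 CPM. The 6 oligodendrocyte markers summed to 178 to 202 CPM with PBS, 135 to 156 CPM with LPS and 109 to 307 CPM over the slice groups. In untreated brain the astrocyte sum was 3861 to 4181 CPM and the oligodendrocyte sum 6099 to 6673 CPM. This microglial sum was lower after each treatment of sorted cells, at 10382 to 13332 CPM with TNF (9 of 10 genes fell), 15644 to 18016 CPM with GM-CSF (7 of 10 fell) and 40274 to 48364 CPM with LPS (5 of 10 fell). In brain tissue after LPS it was 407 to 429 CPM in 3 samples and 247 CPM in replicate 3. There 3 of 10 genes fell and 0 rose, and the median log2 value of the 10 was 0.18. Brain tissue is a mixture, and in it fewer cells of a type and less RNA per cell cannot be told apart.

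Itgb5 was the most abundant member in microglia that had not been stimulated. Per kilobase of exon, its level averaged 920 ± 16.2 CPM (SD, n = 4) in adult microglia with PBS and 532 ± 65.0 (n = 9) in slice microglia with medium. In adult microglia with PBS the order of levels per kilobase went on with Itgam (333), Itgb2 (248), Itgb1 (116), Itga6 (50.4), Itgav (25.7), Itga5 (8.03) and Itgax (1.74). Itga4 (0.114) and Itgal (0.0839) came last and their samples overlapped. Itgal was thus at the bottom of the order in resting adult microglia. In slice microglia with medium the order per kilobase was Itgb5, Itgb2 (296), Itgb1 (169), Itgam (48.7), Itga6 (39.4), Itga5 (37.6), Itgav (13.1), Itgax (8.42), Itgal (7.31) and Itga4 (0.491). There the samples of Itgam and Itga6, of Itga6 and Itga5, of Itgav and Itgax, and of Itgax and Itgal overlapped. The tables differ in age, culture, library layout and counting, so no test was made between them.

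The order changed with treatment at its top. With TNF, Itgb2 came first (381 CPM per kilobase), and Itgb5 (192) and Itgb1 (180) followed with overlapping samples. Itga5 came next at 102, above Itgam at 52.7, a place of Itgam that is uncertain because of the exon bases it shares with Gm49368. With GM-CSF, Itgb5 (349) and Itgb2 (287) overlapped and Itgb1 (157) was lower. In adult microglia with LPS, Itgb5 (756) stayed first, and the samples of Itgam (531) and Itgb2 (415) overlapped. In untreated brain the order was Itgb1 (15.2 CPM per kilobase), Itgav (10.6), Itgb5 (9.84), Itgam (4.53), Itga6 (3.62), Itga4 (1.84), Itgb2 (1.76), Itga5 (1.27), Itgal (0.172) and Itgax (0.0321). In this tissue order Itgav and Itgb5 overlapped, as did Itga4 and Itgb2. Itga4, last in adult microglia with LPS (0.101), thus stood above Itga5 in untreated brain. After LPS the tissue order put Itgb2 (3.80) above Itga4 (2.00), which overlapped Itga5 (1.78).

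**Figure D1:**
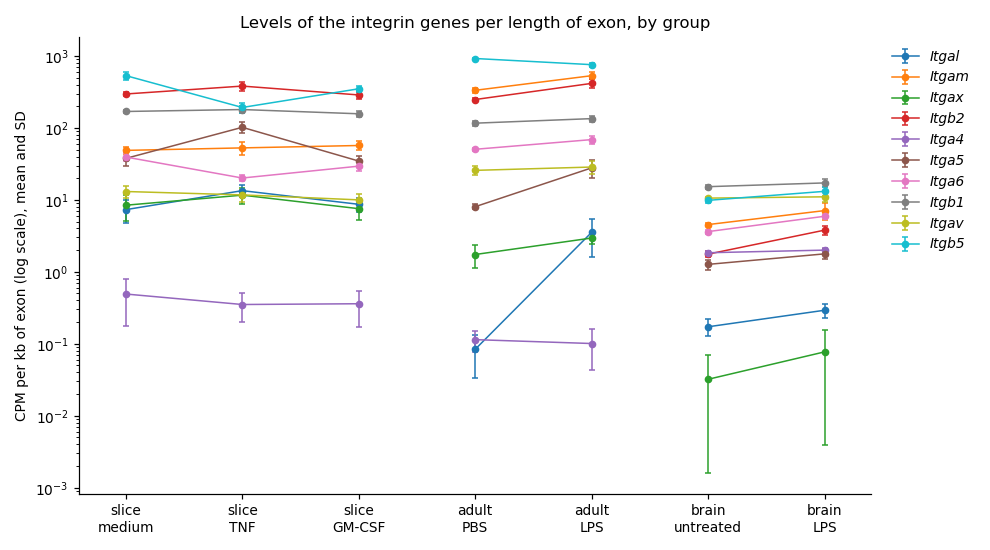
Mean level of each of the 10 integrin genes in the 7 groups, in CPM per kilobase of exon on a log axis, with the SD over samples as error bars (lower bars that would pass 0 end just above it). Itgb5 leads at 920 in adult microglia with PBS and at 532 in slice microglia with medium, and Itgb2 leads with TNF, at 381.

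Genes were called with an adjusted p under 0.05 from edgeR's quasi-likelihood test over all genes tested and a change of more than 1.5-fold. With TNF against medium 4 of 10 members were called, 2 higher (Itga5, Itgal) and 2 lower (Itga6, Itgb5), while 20.8% of all 11313 genes tested were called, 9.10% higher and 11.7% lower. The median log2 fold change was 0.10 over the members and −0.03 over all genes. With GM-CSF against medium 1 of 10 members was called, Itgb5, which fell, beside 10.8% of all genes (4.84% higher, 5.96% lower), and the medians were −0.14 and −0.04. At any fold size 3 members passed the adjusted p (Itga6, Itgav and Itgb5, all lower), beside 25.6% of all genes. The share called among the members with GM-CSF was near that among all genes. The TNF and GM-CSF comparisons share the 9 medium samples, so their values are not independent of each other.

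With LPS against PBS in adult microglia, 5 of 10 members rose (Itgal, Itga5, Itgam, Itgb2, Itgax) and 0 fell, beside 27.4% of 12987 genes called, 14.4% higher and 13.0% lower. The medians were 0.56 over the members and 0.01 over all genes. At any fold size 8 members passed, beside 51.6% of all genes. In brain tissue 2 of the 9 members tested rose (Itgb2, Itga6) and 0 fell, beside 3.18% of 15083 genes, 2.63% higher and 0.550% lower. The member medians there were 0.48 against 0.00 over all genes. Itgax was too low in brain tissue to pass the filter, with counts of 0, 1, 1 and 4 in untreated samples and 1, 6, 0 and 6 after LPS.

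**Figure D2:**
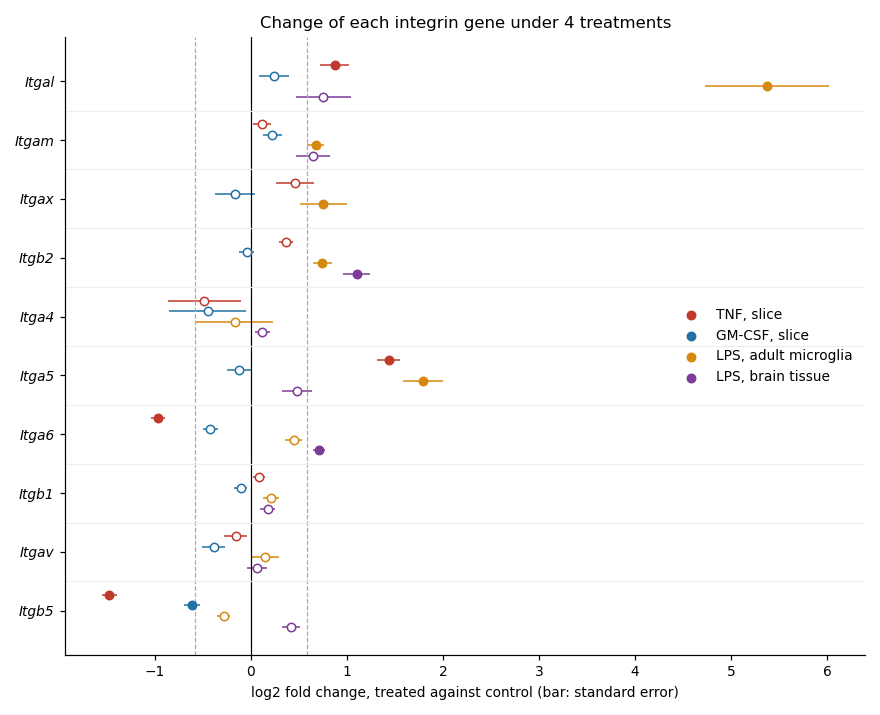
Log2 fold change of each integrin gene under each of the 4 treatments against its control, with the SE of the edgeR fit as bars. Filled points passed the call and open points did not, and dashed lines mark 1.5-fold. Itgal rose most, by 5.37 in adult microglia after LPS, and Itgb5 fell most, by 1.47 with TNF.

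All 4 genes of the beta2 family rose in adult microglia after LPS. Itgal, the alpha chain of LFA-1, measured 1.00, 0.502, 0.483 and 0.216 CPM in the 4 PBS samples, which are 14, 7, 6 and 3 counts. With LPS it measured 36.7, 7.35, 20.3 and 28.7 CPM, which are 504, 86, 265 and 390 counts. Every LPS sample lay above every PBS sample, and replicate 2 was the lowest of the LPS samples. Itgal rose 41.5-fold (log2 5.37 ± 0.64 SE, edgeR adjusted p = 0.000230), with a 95% interval from 4.12 to 6.63.

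Itgb2, the shared beta chain, measured 803, 745, 743 and 733 CPM with PBS and 1437, 1024, 1248 and 1360 CPM with LPS. It rose 1.68-fold (log2 0.74 ± 0.10, edgeR adjusted p = 6.02e-05). Itgam measured 1862, 1639, 1588 and 1597 CPM with PBS and 2646, 2719, 2286 and 3021 CPM with LPS. The groups of both genes were separate, and Itgam rose by a log2 fold change of 0.67 ± 0.09 (edgeR adjusted p = 7.84e-05). Itgax measured 10.5, 10.5, 4.42 and 7.92 CPM with PBS and 17.6, 13.9, 11.5 and 13.6 CPM with LPS. It rose 1.69-fold (log2 0.76 ± 0.24, edgeR adjusted p = 0.0223), but the call was lost without PBS replicate 3 (log2 0.55), PBS replicate 4 (0.73) or LPS replicate 1 (0.63). The lowest PBS value of Itgax was that of replicate 3.

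Among its 3 alpha partners described here, Itgam had the highest level beside Itgb2 in each group. Of the level per kilobase summed over Itgal, Itgam and Itgax, Itgam made up 99.5% in adult microglia with PBS and 98.8% with LPS. The share of Itgal went from 0.0244% to 0.659%, so after its large increase it was still a small part. In slice microglia the shares of Itgal, Itgam and Itgax were 11.4%, 75.9% and 12.7% with medium, 17.5%, 67.7% and 14.9% with TNF and 11.9%, 77.7% and 10.4% with GM-CSF. All these shares depend on the uncertain level of Itgam.

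Genes of other myeloid cells in the adult samples were measured beside these changes. The 7 border macrophage markers summed to 11.3 to 17.2 CPM with PBS and 37.9 to 125 CPM with LPS, 3 of 3 tested rose, and Clec10a was at 0 with PBS. Most of the sum after LPS was Siglec1, a gene that interferons also induce, with 13.4 to 99.3 CPM against 1.94 to 2.95 CPM with PBS. LPS replicate 2 had the lowest sum, 37.9, against 92.5 to 125 in the other 3 samples, and it was also lowest for Itgal, Itga5 and Itgb2. Without that sample the log2 fold changes were 5.67 for Itgal, 1.97 for Itga5 and 0.84 for Itgb2. The 9 neutrophil markers went the other way, from 40.9 to 84.2 CPM with PBS to 2.99 to 9.32 CPM with LPS (5 of 5 tested fell, Ly6g and Retnlg at 0 with LPS), and the 7 monocyte markers from 11.1 to 15.4 to 4.60 to 7.06 CPM (2 of 3 tested fell). The T and NK cell markers, from cells known for Itgal, summed to at most 0.502 CPM, with Cd3e, Cd3g, Cd8a and Nkg7 at 0 in both groups. The part of other cells in the change of Itgal was not tested.

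In slice microglia Itgal was the beta2 family gene called with TNF, and with GM-CSF 0 of the 4 were called. Itgal ranged from 32.0 to 77.8 CPM (median 41.1) with medium, from 63.9 to 121 (median 87.1) with TNF and from 40.3 to 79.7 (median 52.6) with GM-CSF. The upper medium samples overlapped the lower TNF samples. Itgal rose 1.83-fold with TNF (log2 0.87 ± 0.15, edgeR adjusted p = 1.32e-05), and its value with GM-CSF was 0.25 ± 0.16 (edgeR adjusted p = 0.281). Itgb2 ranged from 823 to 984 CPM (median 894) with medium and from 873 to 1342 (median 1222) with TNF. Its log2 fold change of 0.36 ± 0.07 passed the adjusted p (0.000146, edgeR) but lay under the fold limit, at 1.29-fold. With GM-CSF Itgb2 ranged from 724 to 994 CPM (log2 −0.04, edgeR adjusted p = 0.739). The 9 neutrophil markers summed to 0.832 to 15.8 CPM with medium, 3.56 to 128 with TNF and 3.19 to 44.1 with GM-CSF. TNF replicate 6 held the 128, and the TNF median was 8.57 against 2.38 with medium. With TNF 2 of 3 tested rose, with GM-CSF 0 of 3, and Ly6g was at 0 in each slice group. The 7 border macrophage markers summed to 108 to 253 CPM with medium and 157 to 327 with TNF (1 of 5 tested rose and 2 fell). Among them Siglec1 went from 17.7 to 53.0 CPM with medium to 105 to 261 with TNF, while the median log2 value of the 5 tested was −1.70. The 8 T and NK cell markers summed to 8.59 to 40.5 CPM with medium, 4.79 to 30.001 with TNF and 6.25 to 23.5 with GM-CSF, with Cd8a and Ncr1 at 0 in all 3 groups, and the 1 tested, Cd4, fell with both cytokines. Their part in the values of Itgal and Itgb2 was not tested.

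Itgam and Itgax were not called in slice microglia against medium. Itgam ranged from 211 to 277 CPM with medium, from 178 to 325 with TNF (log2 0.11 ± 0.10) and from 213 to 340 with GM-CSF (log2 0.23 ± 0.10), and the groups overlapped. Itgax ranged from 11.9 to 62.9 CPM with medium, from 28.6 to 70.7 with TNF (log2 0.46 ± 0.20) and from 26.0 to 61.6 with GM-CSF (log2 −0.16 ± 0.21). The edgeR adjusted p of Itgax with TNF was 0.0645. The slice titles carry codes 1A, 1B, 2A and 2B whose meaning the labels do not state. Within codes 2A and 2B Itgax with TNF was 0.86 and called, and within codes 1A and 1B it was 0.10 and not called. The other TNF calls held within both pairs of codes: Itgal measured 0.95 and 0.85, Itga5 1.30 and 1.55, Itga6 −1.04 and −0.91 and Itgb5 −1.47 and −1.51.

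In brain tissue Itgb2 rose after LPS. Its partners Itgam and Itgal were not called, and Itgax was not tested. Itgb2 measured 5.01, 6.11, 4.96 and 5.42 CPM in untreated samples and 10.2, 10.00, 12.8 and 13.3 CPM after LPS. The groups were separate, and the increase was 2.15-fold (log2 1.10 ± 0.14, edgeR adjusted p = 0.000108). Itgam measured 23.5, 23.6, 23.0 and 21.1 CPM in untreated samples and 39.2, 33.8, 23.8 and 45.8 CPM after LPS. All LPS samples lay above the untreated ones, but replicate 3, which had the low microglial sum, was just above them. The log2 value of Itgam was 0.65 ± 0.18 (edgeR adjusted p = 0.0584), and without LPS replicate 3 it was 0.80 and called (edgeR adjusted p = 2.78e-06). Itgal measured 0.903, 1.55, 1.14 and 0.938 CPM in untreated samples and 2.21, 1.29, 2.05 and 2.13 CPM after LPS, with overlap (log2 0.76 ± 0.29, edgeR adjusted p = 0.117). In the same samples the border macrophage markers summed to 5.12 to 8.82 CPM before and 13.5 to 19.5 CPM after LPS (3 of 4 tested rose, Mrc1 listed at 0), and the neutrophil markers to 1.36 to 3.10 and 4.82 to 9.75 CPM (1 of 2 tested rose). Their part in the change of Itgb2 was not tested.

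**Figure D3:**
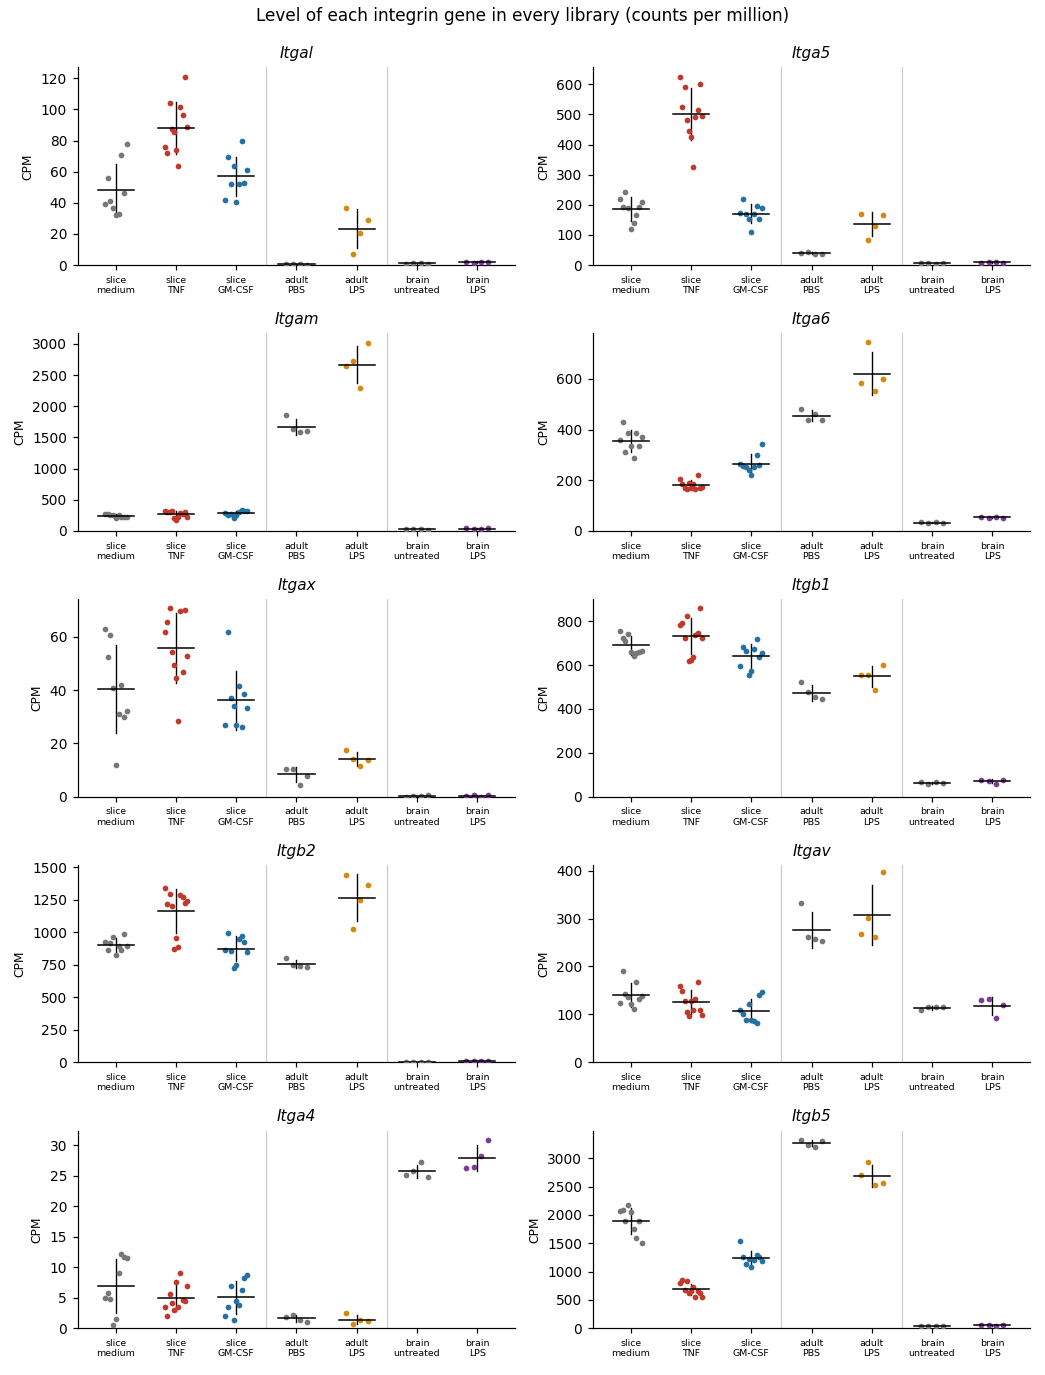
Level of each integrin gene in every sample, in TMM-scaled CPM on an axis from 0, by group, with the group mean as a line and the SD as a bar. Itgal separates PBS (0.216 to 1.00) from LPS (7.35 to 36.7) in adult microglia, and Itgb5 separates medium (1508 to 2176) from TNF (544 to 850) in slice microglia.

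Among the beta1 partners Itga5, the alpha chain of the fibronectin receptor, rose with TNF and in adult microglia with LPS. Itga5 ranged from 120 to 242 CPM (median 193) with medium, from 327 to 625 (median 495) with TNF and from 111 to 219 (median 171) with GM-CSF. Every TNF sample lay above every sample of the other 2 slice groups. Itga5 rose with TNF by 1.43 ± 0.12 on the log2 scale (edgeR adjusted p = 3.25e-12), and the value with GM-CSF was −0.12 ± 0.12 (edgeR adjusted p = 0.517). In adult microglia it measured 40.4, 44.0, 38.2 and 36.0 CPM with PBS and 169, 84.5, 130 and 166 CPM with LPS. The groups were separate and Itga5 rose 3.46-fold (log2 1.79 ± 0.21, edgeR adjusted p = 0.000137). In brain tissue Itga5 measured 5.72, 7.18, 5.16 and 6.98 CPM in untreated samples and 7.37, 10.6, 8.80 and 8.29 CPM after LPS. These were also separate, but the call was not reached (log2 0.48 ± 0.15, edgeR adjusted p = 0.0603).

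Itga6, the alpha chain of the laminin receptors, fell with TNF and rose in brain tissue with LPS. It ranged from 288 to 428 CPM (median 359) with medium, from 165 to 222 (median 172) with TNF and from 219 to 344 (median 257) with GM-CSF. With TNF every sample was below every medium sample, and Itga6 fell by 0.97 ± 0.07 on the log2 scale (edgeR adjusted p = 4.39e-13). With GM-CSF the value was −0.42 ± 0.08 (edgeR adjusted p = 8.03e-05), under the fold limit at 1.34-fold. In adult microglia Itga6 measured 480, 439, 462 and 438 CPM with PBS and 586, 745, 551 and 599 CPM with LPS. The samples were separate, and the log2 value of 0.45 ± 0.09 (edgeR adjusted p = 0.00143) was under the fold limit. In brain tissue Itga6 measured 35.2, 30.3, 33.1 and 32.1 CPM in untreated samples and 54.7, 50.2, 56.4 and 52.1 CPM after LPS. It rose 1.63-fold there (log2 0.71 ± 0.06, edgeR adjusted p = 3.68e-06). Endothelial cells, also known for Itga6, were measured by 7 markers in brain tissue, which summed to 170 to 196 CPM in untreated samples and 183 to 261 CPM after LPS. LPS replicate 3 had the lowest endothelial sum, 183 against 250 to 261 CPM in the others, and the highest Itga6. Of the 7 markers 2 rose, and their part in the result was not tested.

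Itgb1, the shared beta chain, stayed within a narrow range. Its group means were 689 ± 42.9 CPM with medium, 734 ± 81.3 with TNF and 641 ± 54.7 with GM-CSF. In adult microglia they were 474 ± 36.5 CPM with PBS and 549 ± 48.3 with LPS. In brain tissue they were 62.2 ± 3.90 CPM in untreated samples and 70.1 ± 8.19 after LPS. The log2 fold changes of Itgb1 against the controls lay between −0.11 (GM-CSF) and 0.21 (LPS, adult microglia, edgeR adjusted p = 0.0471), with 95% intervals that reached at most 0.37. Itga4, a partner for VCAM-1, was the lowest member in each slice group, at 6.87 ± 4.40 CPM with medium, 4.91 ± 2.12 with TNF and 5.03 ± 2.65 with GM-CSF. It passed no test: the log2 values were −0.48 ± 0.38 with TNF, −0.45 ± 0.40 with GM-CSF, −0.17 ± 0.41 in adult microglia and 0.12 ± 0.07 in brain tissue. With 4 to 88 counts of Itga4 in a slice library, these intervals are wide, from −1.23 to 0.26 for TNF.

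Itgb5, the partner of Itgav, fell with both cytokines. It ranged from 1508 to 2176 CPM (median 1901) with medium, from 544 to 850 (median 663) with TNF and from 1088 to 1542 (median 1218) with GM-CSF. Every TNF sample lay below every sample of the other 2 slice groups, while the highest GM-CSF sample lay just above the lowest medium sample. Itgb5 was 2.77-fold lower with TNF (log2 −1.47 ± 0.08, edgeR adjusted p = 5.83e-17) and 1.52-fold lower with GM-CSF (log2 −0.61 ± 0.08, edgeR adjusted p = 7.74e-07). The GM-CSF value is close to the fold limit: within codes 1A and 1B it was −0.67 and called, within codes 2A and 2B it was −0.53 and not called, and with libraries scaled to their total counts it was −0.50 and not called. That scaling moved the median of all genes from −0.04 to 0.07 and the calls over all genes from 548 higher and 674 lower to 817 and 459, and relative to the median Itgb5 was at −0.57 under either scaling. The summed microglial markers given above moved the same way as Itgb5 and Itga6 in slice microglia, and their part in these results was not tested.

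After LPS Itgb5 differed in direction between adult microglia and brain tissue without passing the fold limit in either. In adult microglia it measured 3327, 3244, 3200 and 3304 CPM with PBS and 2707, 2944, 2534 and 2556 CPM with LPS, which were separate (log2 −0.28 ± 0.07, edgeR adjusted p = 0.00419). In brain tissue it measured 31.6, 34.0, 38.8 and 35.4 CPM in untreated samples and 50.4, 47.4, 37.5 and 51.2 CPM after LPS (log2 0.42 ± 0.09, edgeR adjusted p = 0.0119). The low LPS sample of brain tissue was again replicate 3. Itgav itself was not called in any comparison. It averaged 140 ± 24.9 CPM with medium, 126 ± 24.7 with TNF and 107 ± 23.8 with GM-CSF, and the GM-CSF value of −0.39 ± 0.12 passed the adjusted p alone (0.0172, edgeR). In adult microglia Itgav averaged 276 ± 37.3 CPM with PBS and 307 ± 62.1 with LPS, and in brain tissue 114 ± 3.54 CPM in untreated samples and 118 ± 18.8 after LPS.

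The cytokines were compared with each other in the same fit. Of the 10 members 3 were higher with TNF than with GM-CSF (Itga5, Itgal, Itgax) and 1 was lower (Itgb5), beside 16.2% of all genes called, 8.25% higher and 7.96% lower. At any fold size 7 members passed the adjusted p, beside 30.8% of all genes. The differences were 1.56 ± 0.12 for Itga5 (log2, edgeR adjusted p = 5.95e-13) and −0.86 ± 0.08 for Itgb5 (edgeR adjusted p = 5.46e-11), and for both genes the samples did not overlap. Itgal (0.63 ± 0.15, edgeR adjusted p = 0.00115) and Itgax (0.62 ± 0.20, edgeR adjusted p = 0.0158) lay just past the fold limit with overlapping samples. Itgal was 0.56 within codes 1A and 1B, where it was not called, and 0.70 within codes 2A and 2B. Itgax was 0.54 and 0.67 and was called within neither pair of codes. With total-count scaling, which moved the median of all genes from −0.02 to −0.19 and the calls from 933 higher and 900 lower to 694 and 1514, Itgal (0.46) and Itgax (0.45) were not called and Itga6 (−0.72) was. Relative to that median, Itgal and Itgax were each at 0.65 under both scalings.

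The LPS effect of adult microglia was set against that of brain tissue by an interaction term over the 16 samples. The effect was larger in microglia for Itgal (log2 difference 4.60 ± 0.83, edgeR adjusted p = 0.000457) and Itga5 (1.30 ± 0.30, edgeR adjusted p = 0.00312), and lower for Itgb5 (−0.71 ± 0.13, edgeR adjusted p = 0.000247). These are 3 of 10 members, beside 19.7% of 16676 genes, of which 9.10% were higher and 10.6% lower. Itgb2 (−0.37 ± 0.17, edgeR adjusted p = 0.122) and Itga6 (−0.27 ± 0.12, edgeR adjusted p = 0.103) were not called, with 95% intervals from −0.71 to −0.03 and from −0.51 to −0.03. The difference for Itgam was 0.02 with an interval from −0.36 to 0.40. The controls of these effects differ, PBS in microglia and no injection in brain, and so do the library kits, which cannot be told apart from the tissue.

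Because the chains work in pairs, the log2 ratio of the alpha to the beta count was also taken within each library for 8 pairs, a value that does not depend on scaling between libraries. P values are from two-sided exact permutation tests and were adjusted over the 8 pairs of a comparison. With TNF 5 of 8 ratios differed from medium. Itga5/Itgb1 went from −1.92 ± 0.28 (SD, n = 9) to −0.56 ± 0.19 (n = 11), Itga6/Itgb1 from −0.96 ± 0.16 to −2.01 ± 0.22 and Itgav/Itgb5 from −3.76 ± 0.31 to −2.45 ± 0.29. For each of these 3 ratios the exact permutation test gave p = 1.19e-05, the smallest that 11 against 9 samples allow (adjusted p = 3.18e-05). The alpha5 transcript thus gained on beta1 while the alpha6 transcript lost, and Itgb5, the denominator of Itgav/Itgb5, fell. Itgal/Itgb2 went from −4.30 ± 0.48 to −3.73 ± 0.25 (exact permutation, adjusted p = 0.00730) and Itgam/Itgb2 from −1.89 ± 0.14 to −2.14 ± 0.19 (adjusted p = 0.00367, exact permutation). Within codes 2A and 2B neither of these beta2 ratios passed (differences 0.54 and −0.21).

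With GM-CSF 2 ratios differed from medium. Itgam/Itgb2 was −1.62 ± 0.16, a difference of 0.27, and Itga6/Itgb1 was −1.28 ± 0.16, a difference of −0.31 (each exact permutation, adjusted p = 0.00954). Within codes 1A and 1B Itgam/Itgb2 differed by 0.06 and Itga6/Itgb1 by −0.31, and within codes 2A and 2B by 0.44 and −0.32. The smallest exact p is 0.0286 for the 4 against 4 samples of the first and 0.00794 for the 5 against 5 of the second, and 5 or 2 of the 8 pairs would have to reach it for an adjusted p under 0.05. That neither ratio passed in the 4 against 4 samples says little. In the 5 against 5 samples 3 ratios passed with TNF. With GM-CSF Itgam/Itgb2 had the smallest possible exact permutation p there, 0.00794, and its samples did not overlap. No other pair reached that p, so its adjusted p was 0.0635, and this says little against the ratio. The exact permutation adjusted p of Itga6/Itgb1 was 0.127. The value of Itga6/Itgb1 was as large as over all samples. TNF against GM-CSF gave 4 ratios: Itga5/Itgb1 (1.37), Itga6/Itgb1 (−0.73) and Itgav/Itgb5 (1.11), each with an exact permutation adjusted p of 3.18e-05, and Itgam/Itgb2 (−0.53, adjusted p = 4.76e-05). Itgam/Itgb2 was thus lower with TNF than with either GM-CSF or medium.

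With 4 against 4 samples the smallest exact p is 0.0286, and 5 of the 8 pairs would have to reach it for an adjusted p under 0.05, so no ratio passed in vivo. In adult microglia Itgal/Itgb2 went from −10.5 ± 0.78 with PBS to −5.98 ± 0.80 with LPS and Itga5/Itgb1 from −3.58 ± 0.11 to −2.05 ± 0.45 (each exact permutation p = 0.0286, adjusted p = 0.114). Itgam/Itgb2 was 1.14 ± 0.05 with PBS and 1.08 ± 0.26 with LPS, since both genes rose by a like amount. In brain tissue Itgam/Itgb2 was 2.08 ± 0.15 in untreated samples and 1.59 ± 0.47 after LPS, Itga6/Itgb1 was −0.93 ± 0.03 and −0.39 ± 0.22, and Itgav/Itgb5 was 1.70 ± 0.09 and 1.34 ± 0.11 (each exact permutation p = 0.0286, adjusted p = 0.0762).

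**Figure D4:**
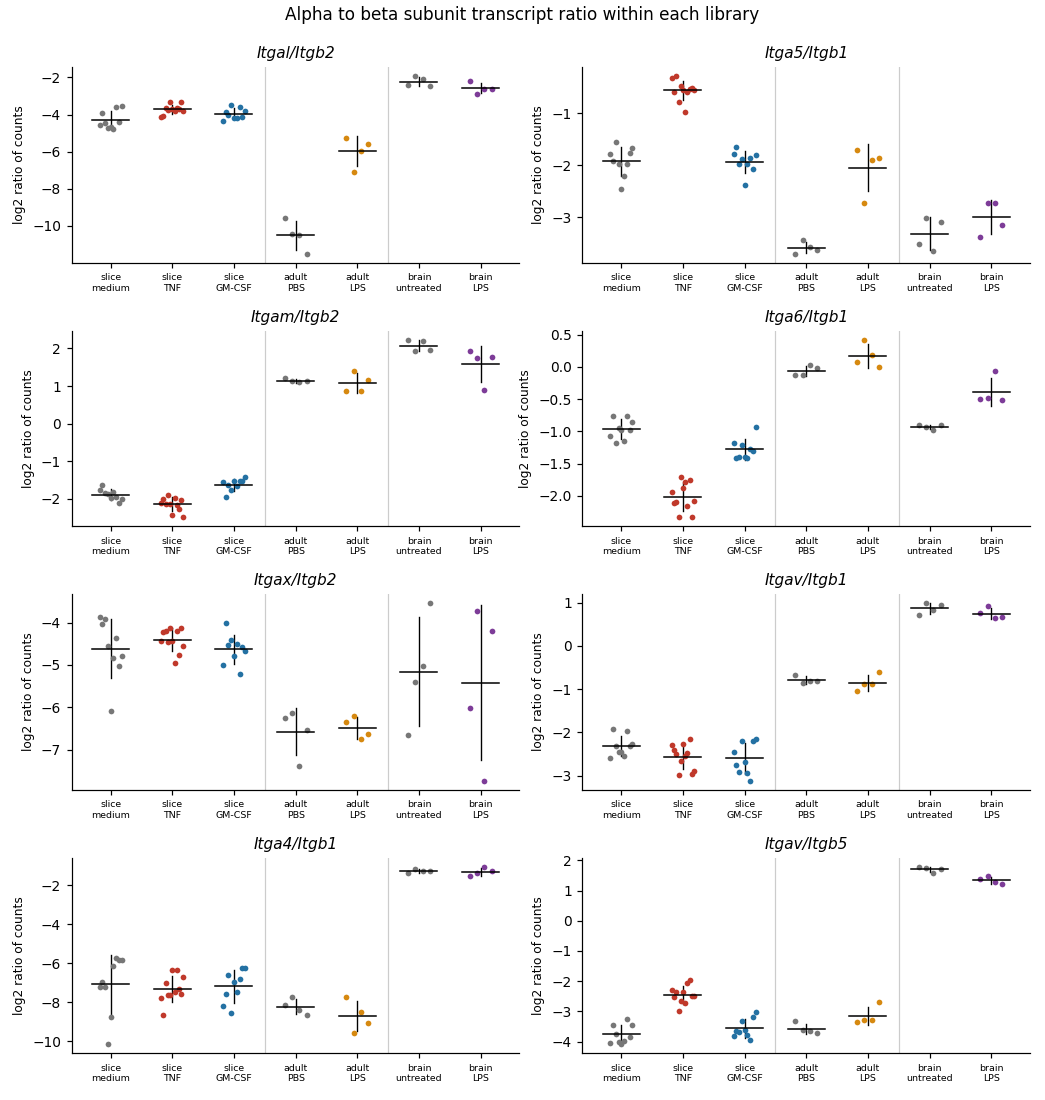
Log2 ratio of alpha to beta counts in every library for the 8 pairs, by group, with the group mean as a line and the SD as a bar. Itga5/Itgb1 lies between −0.96 and −0.29 with TNF and between −2.46 and −1.55 with medium, and Itgal/Itgb2 lies between −11.5 and −9.59 with PBS and between −7.11 and −5.29 with LPS in adult microglia.

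The other integrin subunits were mostly too low to test. Of 17, 2 were tested in slice microglia, 5 in adult microglia and 10 in brain tissue. Itgb3, another partner of Itgav, fell with TNF from 24.8 to 80.4 CPM with medium to 9.57 to 38.8 CPM (log2 −1.27, edgeR adjusted p = 7.78e-06), with GM-CSF (−0.90) and in adult microglia with LPS (−0.82). Itga9, an alpha chain that pairs with Itgb1, fell with GM-CSF (−0.62) and in adult microglia with LPS (−0.67) and was higher with TNF than with GM-CSF (0.75). Itgb7, a beta chain that pairs with Itga4, rose in adult microglia with LPS from 0.574 to 1.30 CPM with PBS to 3.42 to 6.74 CPM (log2 2.50), and Itgae, its other alpha partner, fell (−0.79). In brain tissue 0 of the 10 tested were called, and in the comparison of the LPS effects Itgb7 was higher in microglia (1.94) and Itgb3 lower (−0.96).

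Genes that link integrins to the cytoskeleton and switch them on formed a list of 37, of which 31 to 34 were tested in a single tissue. With TNF 6 of 32 rose and 3 fell, beside 9.10% and 11.7% of all genes (median 0.05 against −0.03 over all genes). With GM-CSF 3 rose and 2 fell, beside 4.84% and 5.96% of all genes (median −0.08 against −0.04). The numbers that fell were near or under the shares over all genes. The kinase Fgr, a Src family member that acts downstream of beta2 integrins in myeloid cells, rose with TNF from 18.2 to 35.9 CPM to 95.1 to 139 CPM (log2 2.12). The talin Tln2 (−1.57) and the adaptors Parvg (−1.25) and Apbb1ip (−0.75) fell. With GM-CSF Dab2 (0.81), the filamin Flna (0.84) and Src (1.58) rose and the adaptor Fyb (−1.0) and the kinase Ptk2b (−0.59) fell. Between the cytokines, Fgr (2.03) and Fyb (1.28) were higher with TNF and Tln2 (−1.10) and Parvg (−0.78) lower, among 4 higher and 2 lower in all, beside 8.25% and 7.96% of all genes.

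In adult microglia with LPS 6 of 31 adhesion genes rose and 5 fell, shares near those of all genes (14.4% and 13.0%), and the median was 0.01, as over all genes. The 4 with the smallest p all fell: the talin Tln2 from 145 to 155 CPM to 57.6 to 70.2 CPM (log2 −1.25), Lims1 (−1.08), the RAP1 effector Rassf5 (−0.59) and the actinin Actn1 (−1.35). In brain tissue 5 of 34 rose and 0 fell, beside 2.63% and 0.550% of all genes (median 0.10 against 0.00 over all genes), among them the signalling adaptor Tyrobp (0.64), the kindlin Fermt3 (0.89) and the kinase Lyn (0.62). These 3 genes are known from blood cells and microglia. The LPS effect was lower in microglia than in brain tissue for 8 of 37 genes, Tln2, Lims1, Actn1 and the paxillin gene Pxn among them, and higher for 4, beside 10.6% and 9.10% of all genes.

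The ligands and binding partners formed a list of 35, of which 19 were tested in each kind of microglia and 29 in brain tissue. With TNF 7 rose and 3 fell, beside 9.10% and 11.7% of all genes (median 0.25 against −0.03 over all genes). With GM-CSF 2 rose and 4 fell, beside 4.84% and 5.96% of all genes (median −0.15 against −0.04). Icam1, a ligand of Itgal and Itgam with Itgb2, ranged from 132 to 224 CPM with medium and from 574 to 860 CPM with TNF (log2 1.97 ± 0.09), with no overlap. With TNF the urokinase receptor Plaur (1.45) and Cd47 (1.07) rose too, and the junction protein F11r (−1.25), another ligand of Itgal, fell. With GM-CSF Fn1, the fibronectin ligand of Itga5, ranged from 1470 to 3519 CPM against 749 to 1877 CPM with medium (log2 1.00 ± 0.23), Plaur rose (0.59), and F11r (−0.88) and Jam2 (−0.97) fell. Vcam1, the ligand of Itga4, was higher with TNF than with GM-CSF, at 96.0 to 157 CPM against 3.67 to 27.9 CPM (log2 3.70 ± 0.30), as were Icam1 (2.15), Cd47 (1.49) and complement C3 (3.41), from which the ligand of Itgam is cut.

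In adult microglia with LPS 6 of 19 ligand genes rose and 3 fell, beside 14.4% and 13.0% of all genes, so the number that fell was near the share over all genes (median 0.04 against 0.01). Fn1 ranged from 0.144 to 0.717 CPM with PBS and from 24.3 to 185 CPM with LPS (log2 8.01 ± 0.93), and C3 rose (2.98). The tetraspanin Cd9 (−1.25) and the junction protein Jam3 (−1.09) fell. In brain tissue 6 of 29 rose and 0 fell, beside 2.63% and 0.550% of all genes (median 0.15 against 0.00 over all genes): among them Spp1, the osteopontin ligand of Itgav, with 14.8 to 15.6 CPM in untreated samples and 23.5 to 32.1 CPM after LPS (log2 0.89), Icam2 (1.37), F11r (0.73) and Tgfb1 (0.66). The LPS effect was larger in microglia than in brain for 3 of 31 genes tested, Fn1 (7.78) and Spp1 (5.20) among them, and lower for 7, Cd9 (−1.17) and Jam3 (−1.25) among them, beside 9.10% and 10.6% of all genes. Between the cytokines 6 ligand genes were higher with TNF and 1 lower, beside 8.25% and 7.96% of all genes.

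**Figure D5:**
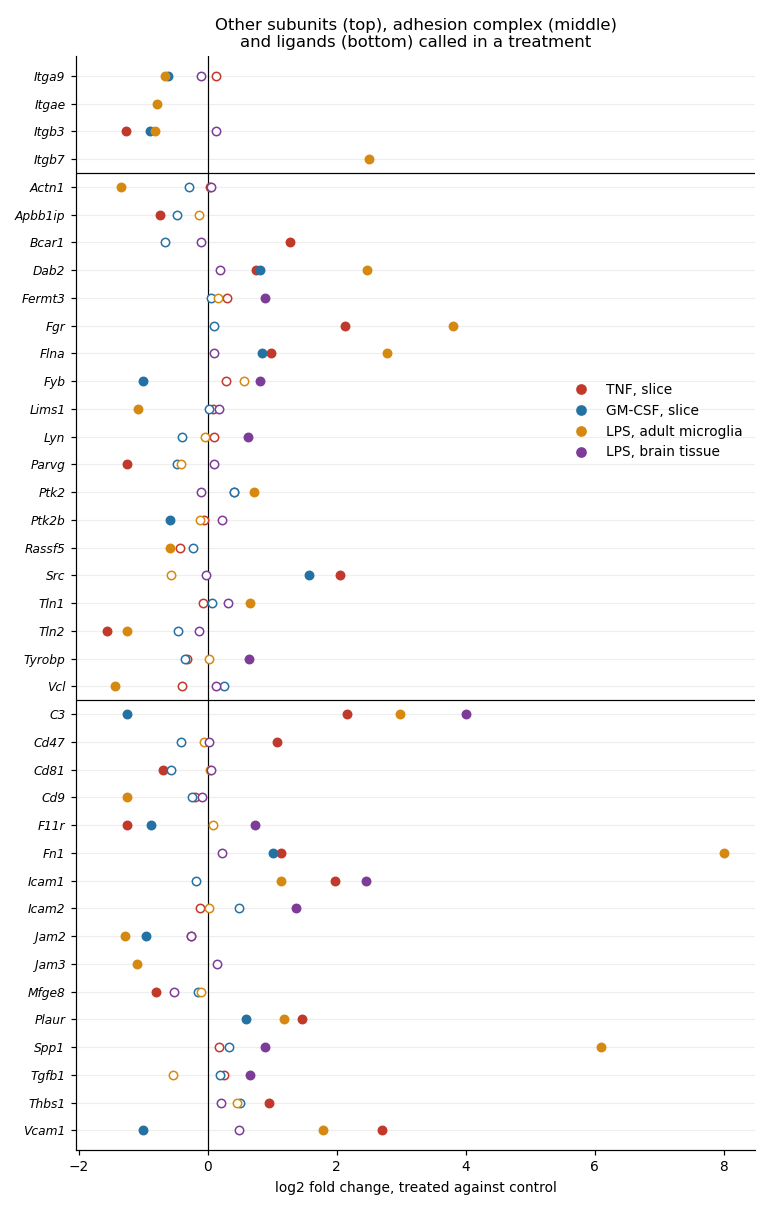
Log2 fold change against control, by treatment, of other subunits (top), adhesion complex genes (middle) and ligands (bottom) called in at least 1 of the 4 treatments, with called values as filled points and others open. With TNF Vcam1 (2.69), Fgr (2.12) and Icam1 (1.97) lie far to the right, and in adult microglia with LPS Fn1 stands at 8.01.

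The genes whose levels most resembled each called member over the 29 slice libraries are given as a description, since treatment moves all of them and the libraries are shared. Itga5 was most like H2-M2, Mvp and Igsf6 (Pearson r of log2 CPM 0.952, 0.952 and 0.950), which dropped to 0.565, 0.648 and 0.484 within treatments. Itgb5 was most like Laptm5, Vsir and Slco2b1 (0.981, 0.979 and 0.978), which stayed at 0.796, 0.762 and 0.739 within treatments. Itga6 was most like Qk, St3gal5 and P2ry12 (0.931, 0.930 and 0.929), and the within-treatment values of 0.579, 0.255 and 0.219 were much lower. P2ry12 is a purinergic receptor that marks resting microglia. Itgal was most like Vim, Tpm4 and Cd38 (0.874, 0.860 and 0.854), with 0.667, 0.642 and 0.662 within treatments. Itgax was most like Igf2bp2, Gadd45b and Zbtb17 (0.825, 0.805 and 0.801), and these values hardly changed within treatments (0.817, 0.812 and 0.787).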

How the data were processed

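RNA of 45 samples was analysed from 3 tables of gene counts. The authors deposited raw read counts for slice microglia (STAR 2.7.0a, featureCounts of Subread 1.6.4 and mm10, per the submitters' processing notes). The authors deposited estimated counts, many not whole, for adult microglia and brain tissue, on mm10 per the same notes, with aligner and counter not given in the sources that were used. Per the study's methods, microglia were amplified with SMART-Seq v4, and brain RNA was prepared with TruSeq. Expected counts were rounded (70872 and 69680 values, table totals changed by under 0.001%), and 92 brain rows naming no gene, with 0 counts, were left out. The 3 tables held 0 per-sample columns without a sample.

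Genes passing filterByExpr (minimum count 10, minimum total 15) were tested with edgeR 4.0.16 in R 4.3.3 (TMM, robust quasi-likelihood F test, Benjamini-Hochberg adjustment over all genes tested). The 29 slice samples were fitted together, adult microglia and brain tissue alone, and the interaction over 16 samples. Thresholds were an adjusted p of 0.05 and a fold change of 1.5, as in the study's methods. Ratios took log2 of counts plus 0.5 and were tested by exact permutation, with all 48620 or 167960 splits enumerated for slice groups in place of the resampling first planned, because a group had under 10 samples. Levels are CPM on TMM-scaled library sizes, divided by union exon length (GENCODE M21) where genes are compared. Scripts were tested on simulated data.

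The 10 members, the gene lists and the tests were chosen with earlier results of these data known. All members are named, and from each other list the 4 called genes of smallest p in a comparison, plus the 3 genes most correlated with each member called in slice microglia. Vcam1 and Fgr in a caption, Tln2 and Ptk2b in slice microglia, named after their values were seen, the marker genes and the overlapping genes stand outside this rule, and 1 gene that it names is not reported here. Per the study's methods the in vivo samples came from independent mice and the slice samples were pooled over 4 independent experiments. The labels do not tie slice samples to these experiments, so p-values for slices measure the spread between these samples. Replicates of a group differed by more than counting noise, and 0 pairs were identical. Alternatives were DESeq2 1.42.0 (test and size factors), limma 3.58.1 voom, total-count scaling, other filters, no fold limit, a replicate block, the title codes and leaving out each in vivo sample. Intervals cover the fit only, and counts are reads without molecular identifiers.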

Additional observations from a re-analysis of the deposited data

Results flagged for a closer look

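In 4 of 60 gene and group combinations a sample stood far from the others of its group, a gap that chance gives in about 1 in 20. Itgav measured 332 CPM in adult PBS replicate 1, against 253 to 262 in the other 3 samples. Itgb2 measured 803 CPM in the same sample, against 733 to 745. Itgax measured 61.6 CPM in slice GM-CSF replicate 2, against 26.0 to 41.6 in the other 8 samples. Itgb5 measured 1542 CPM in slice GM-CSF replicate 1, against 1088 to 1290. The TNF group, with 11 samples, was not examined in this way.

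The LPS effect differed between adult microglia and brain tissue by the interaction test for Itgal (log2 difference 4.60), Itga5 (1.30) and Itgb5 (−0.71). The control treatment and the library kit differ between the tissues in the same way and cannot be told apart from tissue.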

How the results depend on the processing

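Over the alternatives, 798 member fold changes kept their direction and their side of the threshold, 17 gained a call, 11 lost one and 26 changed sign, none of these 26 being called. The number of members called stayed within 1.5 times the main number in 81 alternatives, leave-one-out fits included. It moved for GM-CSF against medium from 1 to 0 with total-count scaling and within codes 2A and 2B, and to 3 with no fold limit, for TNF against GM-CSF from 4 to 7 with no fold limit and 2 within codes 1A and 1B, and for LPS in adult microglia from 5 to 8 with no fold limit. Ratio pairs past the threshold with TNF were 3 within codes 2A and 2B in place of 5, and with GM-CSF 0 within each pair of codes in place of 2. With GM-CSF the 4 against 4 samples of codes 1A and 1B could hardly pass. In the 5 against 5 samples of codes 2A and 2B 3 ratios passed with TNF. With GM-CSF Itgam/Itgb2 had the smallest possible exact permutation p there. No other pair reached it, so its adjusted p stayed over 0.05. Over all genes, no fold limit gave 4476 calls in place of 2353 with TNF, 2892 in place of 1222 with GM-CSF, 3486 in place of 1833 between the cytokines, 6703 in place of 3563 in adult microglia and 1533 in place of 479 in brain tissue, codes 2A and 2B alone gave 785 with GM-CSF, and a minimum count of 50 gave 288 in brain tissue. Causes were not tested. Brain Itgam was called with limma-voom (0.61, adjusted p = 0.0330), DESeq2 (0.64, adjusted p = 0.000971) and a minimum count of 50 (0.65, adjusted p = 0.0470), and the interaction of Itga5 was not called with limma-voom (1.27, adjusted p = 0.0756). With no filter brain Itgax was 1.20 (edgeR adjusted p = 0.556).

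Signs changed within codes 1A and 1B for TNF in Itga4 (0.084), Itgb1 (−0.0029), Itgax/Itgb2 (−0.21) and Itga4/Itgb1 (0.38), for GM-CSF in Itgam (−0.030) and Itga4/Itgb1 (0.15), and between the cytokines in Itga4 (0.31), Itgam (0.056) and Itga4/Itgb1 (0.23). Within codes 2A and 2B they changed for GM-CSF in Itga5 (0.00051), Itgax (0.19), Itgb1 (0.0091), Itgb2 (0.0080) and Itgax/Itgb2 (0.27). Itgb2 with GM-CSF was 0.060 with total counts. Itga4 between the cytokines was 0.052 with limma-voom and 0.15 with the title code as a covariate. Leaving out each sample in turn, adult Itga4 ran from −0.63 to 0.051, and the interaction from −0.14 to 0.16 for Itgam, from −0.063 to 0.18 for Itgav, from −1.54 to 0.0036 for Itgax and from −0.053 to 0.083 for Itgb1.

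Pairing by replicate number was checked with correlations of deviations. For adult microglia these lay between −0.03 and 0.02. The brain tissue limits were −0.08 and 0.04. Between slice groups the values spanned −0.04 to 0.18, with 4 of 9 pairs at most over 0.1. Those 4 were replicates 1 to 4 of medium and TNF (0.11 to 0.18), whose titles carry consecutive numbers. Replicates 5 to 9 of these groups (0.04 to 0.09) do not match by title number. Pairing of slice samples by title number was thus not tested, and the main slice tests treated samples as unpaired. With a replicate block the members called stayed at 4, 1, 4, 5, 2 and 3 in the 6 comparisons, and Itga4 between the cytokines became 0.024. That block groups slice samples by replicate number, in part across title codes, so in the slice comparisons it does not test pairing. Depth limits Itga4 in slice and adult microglia, Itgal in PBS microglia and brain tissue, and Itgax in brain tissue.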
